A study of Mus musculus with 120 samples.

Results

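HDAC4CA was set directly against CREB in the thalamus of wild-type mice, as 4 HDAC4CA libraries against 4 CREB libraries, which are 8 of the 120 libraries of the series. The libraries were chosen by their labels alone, from the titles that name the transgene and thalamus, the genotype WT and the time ZT12.5, just after lights off. All 8 came from C57BL/6J mice of genotype WT that had received adeno-associated virus (AAV) into the retro-orbital sinus 3 weeks before the brain was dissected, and polyA RNA was sequenced. The labels name the overexpressed protein as HDAC4CA or as CREB, and the design text writes both with the prefix ABC-. They do not spell out the suffix CA, the promoter that drives the transgene, the cells it reaches, or the age and sex of the mice. The replicates are called biological, and nothing ties a library of one region to a library of another by mouse. Libraries of wild-type thalamus from mice given an mCherry virus (4, same strain, route and time) are printed for comparison and took no part in the test. The same contrast was available in Sleepy thalamus (genotype Sik3E13delta/+, 1 allele of the kinase gene Sik3 without exon 13), in wild-type cortex and in wild-type hypothalamus, each with 4 HDAC4CA and 4 CREB libraries at ZT12.5.

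HDAC4 is a class IIa histone deacetylase that represses genes chiefly by binding MEF2 transcription factors, and phosphorylation by salt-inducible kinases and related kinases lets 14-3-3 proteins hold it in the cytoplasm. CREB is a transcription factor that binds the cAMP response element (CRE) and turns genes on when protein kinase A or calcium-dependent kinases phosphorylate it or when CRTC coactivators join it. Salt-inducible kinases also phosphorylate CRTC proteins, so class IIa deacetylases and CREB lie on arms that the same kinases reach. The thalamus is built mainly of glutamatergic relay neurons, with inhibitory neurons in the reticular nucleus, and its firing modes change between sleep and wake. The contrast asks which genes stand at different levels when one of these regulators, rather than the other, is overexpressed there.

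Levels are RPKM as deposited, that is reads per kilobase of gene and per M (mega) reads of the library, and fold changes are log2 differences of HDAC4CA over CREB on the scale log2(RPKM + 0.1) after rescaling between libraries. A fold printed beside one is the same difference without the logarithm, so it understates the change of low genes. The steps between low values put the depth at 18.4 to 28.2 M reads in the HDAC4CA libraries and 23.1 to 25.3 M in the CREB libraries. A gene is called at an adjusted p under 0.05 in limma, and every adjusted p of a gene below is from that fit, with Benjamini-Hochberg adjustment over all genes tested. All 10 markers of thalamic relay neurons were detected in every library. Their summed levels were 317 to 387 RPKM with HDAC4CA, 336 to 374 RPKM with CREB and 345 to 358 RPKM with mCherry. These sums were not set beside those of another region. Markers of choroid plexus, the secretory epithelium beside the thalamus, split the HDAC4CA group. Transthyretin (Ttr) stood at 88.2, 1493, 4.28 and 7.81 RPKM with HDAC4CA, at 1224, 249, 1244 and 657 RPKM with CREB, and at 23.8, 1334, 1687 and 537 RPKM with mCherry. Gapdh, a glycolytic enzyme that every cell uses, lay at 5.24 to 5.94 RPKM in these 8 libraries and at 142 to 178 FPKM in the 8 of Sleepy thalamus, so levels were compared within a set only, and the cause was not tested.

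Promoter windows of 4 genes are shown. Cck and Gal are the neuropeptide genes with the largest fall and rise. E2f1 and Nr4a2 fell, and their windows hold several copies of the short CRE motif. They were picked after their values had been seen. Each is the RefSeq window of GRCm38.p6 that runs from 250 bases before the annotated start to 50 bases after it, read 5′ to 3′ along the gene, and capitals mark the short CRE motif TGACG or its reverse complement CGTCA. All 4 genes lie on the minus strand, with windows for Cck at chr9:121495645-121495944, Gal at chr19:3414495-3414794, E2f1 at chr2:154569377-154569676 and Nr4a2 at chr2:57123954-57124253. The E2f1 window lies wholly within the E2f1 gene as GENCODE places it (chr2:154559407-154569892, minus strand). It therefore holds no sequence from before that start.
Cck promoter: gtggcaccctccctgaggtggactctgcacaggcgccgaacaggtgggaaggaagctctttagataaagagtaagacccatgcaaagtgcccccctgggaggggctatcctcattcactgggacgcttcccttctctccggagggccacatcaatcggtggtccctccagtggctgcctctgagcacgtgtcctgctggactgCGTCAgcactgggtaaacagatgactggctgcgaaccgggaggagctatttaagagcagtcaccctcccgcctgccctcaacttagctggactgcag
Gal promoter: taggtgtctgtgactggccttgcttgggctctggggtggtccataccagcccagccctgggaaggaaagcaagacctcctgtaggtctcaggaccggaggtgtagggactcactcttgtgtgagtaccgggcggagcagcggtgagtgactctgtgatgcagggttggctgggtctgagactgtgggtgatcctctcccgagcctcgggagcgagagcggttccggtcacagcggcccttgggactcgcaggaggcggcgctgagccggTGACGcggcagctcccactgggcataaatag
E2f1 promoter: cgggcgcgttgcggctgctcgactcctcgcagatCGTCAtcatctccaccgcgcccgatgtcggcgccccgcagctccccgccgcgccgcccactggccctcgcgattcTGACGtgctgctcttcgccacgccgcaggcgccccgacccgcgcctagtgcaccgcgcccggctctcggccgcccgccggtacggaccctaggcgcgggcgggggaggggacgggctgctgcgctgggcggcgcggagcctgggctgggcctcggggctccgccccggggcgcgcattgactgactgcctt
Nr4a2 promoter: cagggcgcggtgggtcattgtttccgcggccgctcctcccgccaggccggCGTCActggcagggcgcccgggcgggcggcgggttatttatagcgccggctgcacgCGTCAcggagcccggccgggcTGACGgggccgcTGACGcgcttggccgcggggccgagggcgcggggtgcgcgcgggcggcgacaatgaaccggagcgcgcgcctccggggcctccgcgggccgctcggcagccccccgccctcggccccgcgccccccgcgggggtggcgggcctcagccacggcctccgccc
The Cck window holds 1 short motif and the Gal window 1 (within the 50 bases after the start). The E2f1 window holds 2, both inside the gene as GENCODE places it, and the Nr4a2 window 4. None of the 4 windows holds the full palindrome TGACGTCA. A match is a string of letters and says nothing of binding.

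The genes that encode the overexpressed proteins stood apart in the direction of the labels. Hdac4 (ENSMUSG00000026313.16, chr1:91928779-92195699, minus strand) had 7.26, 7.03, 7.59 and 7.56 RPKM with HDAC4CA, against 2.52, 2.36, 2.68 and 2.59 RPKM with CREB, a 2.93-fold difference (log2 fold change 1.55 ± 0.055 SE, adjusted p = 8.2e-07). Creb1 (ENSMUSG00000025958.14, chr1:64532645-64604548, plus strand), which encodes CREB, had 3.63, 3.29, 3.41 and 3.21 RPKM with HDAC4CA, against 9.39, 13.4, 12.9 and 12.5 RPKM with CREB, 3.34-fold lower with HDAC4CA (log2 fold change -1.74 ± 0.098 SE, adjusted p = 1.5e-05). The 4 libraries of each group lay beyond all 4 of the other for both genes. With mCherry, Hdac4 stood at 2.53, 2.84, 2.61 and 2.63 RPKM, overlapping the CREB libraries, and Creb1 at 3.71, 3.99, 3.84 and 3.82 RPKM, just above the HDAC4CA libraries and far below the CREB libraries. RNA of the virus and of the mouse gene cannot be told apart in these counts, and Hdac4 overlaps an exon of Gm26720 on the other strand, whose reads cannot be told apart without the strand setting.

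Across the thalamus, 2124 of 16768 genes tested differed between HDAC4CA and CREB (12.7%). Of these, 1169 were higher with HDAC4CA (6.97% of all tested) and 955 were lower (5.70%). Most differences were small: the median size of a called log2 fold change was 0.31, and 70 called genes passed 2-fold, 29 higher and 41 lower. The groups did not overlap at 3028 genes (18.1%), and among these is each gene given below with its value in all 8 libraries. Scaling set the balance, since the deposited values without rescaling gave 605 higher and 1193 lower genes, 33.6% higher against 55.0%. With the choroid plexus marker level as a covariate, a fit chosen after the data had been seen, 1021 genes were called (459 higher, 562 lower), and 923 of the 2124 kept their call. The median log2 fold change of all tested genes was -0.015, -0.065 without rescaling. Exons of Kcnj3, Kcnj9, Fzd5, Grin2d, Bhlhe40, Syn1, Tuba8 and Wnt5a, all described below, overlap another annotated gene, whose reads may be counted with theirs. So do exons of Cacng8, Homer2, Kcnmb4, Kcnip4, Atp2a1, Oprm1, Slc1a2, Prkar1b, Atf2, Bsn and Grid1, and of some other genes described below.

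**Figure D1:**
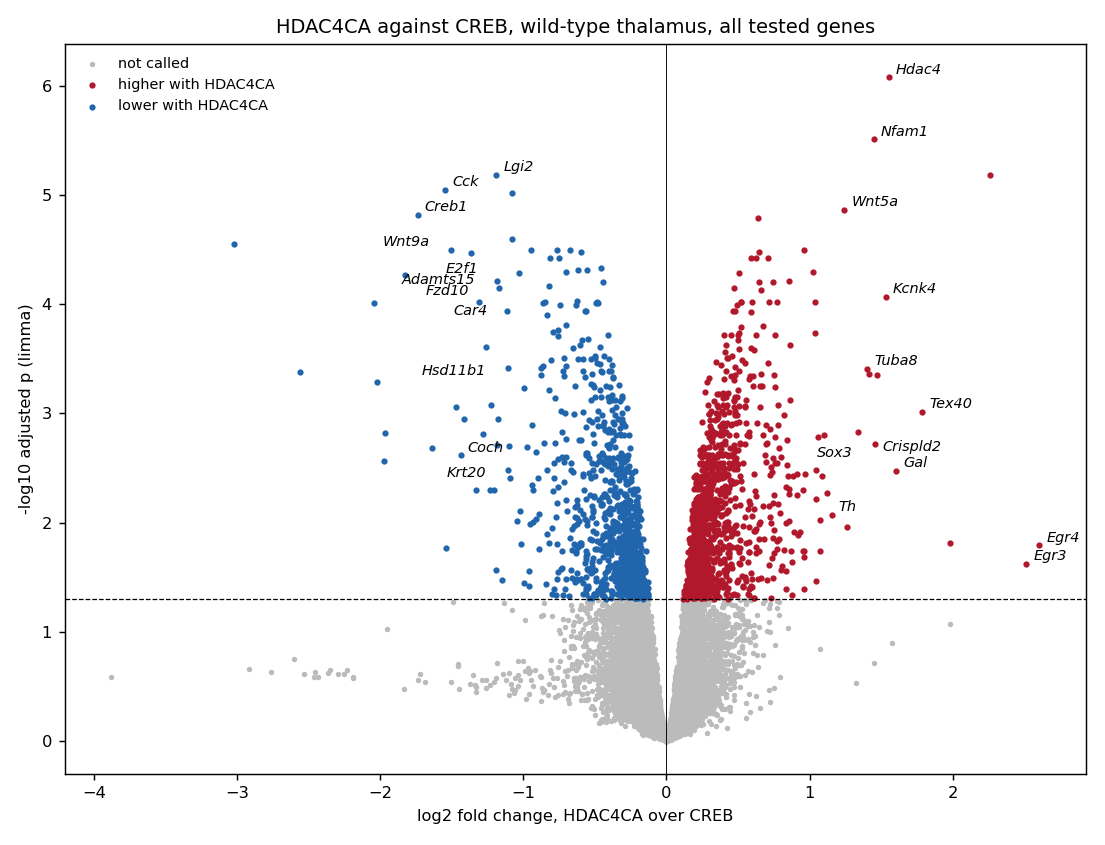
Log2 fold change of HDAC4CA over CREB (horizontal axis) against -log10 of the limma adjusted p (vertical axis) for all 16768 genes tested in wild-type thalamus. The 1169 called higher genes are red, the 955 called lower genes blue and the rest grey, the dashed line marks an adjusted p of 0.05, and the genes named are from the 12 largest rises and 12 largest falls among well-expressed genes with separate groups. Hdac4 and Creb1 stand out on opposite sides.

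Among called genes that averaged at least 1 RPKM and whose groups did not overlap, the largest rises with HDAC4CA were those of 2 early response transcription factors, an ion channel gene and its neighbour, secreted signals and enzymes. Gal, the precursor of the inhibitory neuropeptide galanin (ENSMUSG00000024907.7, chr19:3409915-3414544, minus strand), had 11.9, 10.96, 11.4 and 9.87 RPKM with HDAC4CA, against 2.16, 3.74, 4.50 and 5.00 RPKM with CREB, a 3.05-fold rise (log2 fold change 1.61 ± 0.22 SE, adjusted p = 0.0033). Its mCherry libraries had 4.22, 3.10, 3.16 and 2.66 RPKM, all within the range of the CREB libraries. Kcnk4 encodes TRAAK, a leak potassium channel opened by membrane stretch. It had 4.56, 4.28, 5.87 and 5.13 RPKM with HDAC4CA, against 1.94, 1.80, 1.67 and 1.43 RPKM with CREB (log2 fold change 1.53 ± 0.12 SE, adjusted p = 8.5e-05), and the 4 mCherry libraries lay at 2.21 to 2.36 RPKM, between the groups. Tex40, whose RefSeq name is Catsperz and which encodes a subunit of the sperm calcium channel, lies beside Kcnk4 on chromosome 19 and shares exonic bases with it, so reads of the pair cannot be fully told apart. Tex40 rose by 1.79 on the log2 scale (5.34 ± 0.518 RPKM with HDAC4CA and 1.59 ± 0.513 RPKM with CREB, SD, n = 4 each; adjusted p = 0.00097).

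Nfam1, a signalling receptor best known from B cells, had 3.76, 3.90, 4.10 and 4.21 RPKM with HDAC4CA, against 1.37, 1.42, 1.55 and 1.47 RPKM with CREB (log2 fold change 1.45 ± 0.063 SE, adjusted p = 3.1e-06). No HDAC4CA library came near the CREB or the mCherry libraries (1.48, 1.65, 1.48 and 1.51 RPKM). Wnt5a, a ligand of the non-canonical Wnt pathway, had 3.81, 3.62, 3.78 and 3.23 RPKM with HDAC4CA, against 1.56, 1.43, 1.51 and 1.59 RPKM with CREB (log2 fold change 1.24 ± 0.071 SE, adjusted p = 1.4e-05). Again the CREB and mCherry libraries overlapped, with mCherry at 1.59, 1.65, 1.70 and 1.47 RPKM. Crispld2, a secreted cysteine-rich protein, rose by 1.46 ± 0.21 on the log2 scale, Tuba8, an alpha-tubulin isoform, by 1.40 ± 0.15, and Sox3, a transcription factor of neural progenitors, by 1.10 ± 0.15 (SE; adjusted p = 0.0019, 0.00039 and 0.0016). Th encodes tyrosine hydroxylase, the rate-limiting enzyme of catecholamine synthesis. It had 1.93, 2.15, 3.72 and 3.39 RPKM with HDAC4CA, against 0.932, 1.16, 1.34 and 1.42 RPKM with CREB (log2 fold change 1.15 ± 0.21 SE, adjusted p = 0.0085), but 1 mCherry library stood at 3.11 RPKM, inside the HDAC4CA range, and with the mCherry libraries in the fit the call ended (adjusted p = 0.052).

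Egr3 and Egr4, zinc-finger transcription factors induced by neuronal activity, had the steepest rises of the ranked genes and a wide spread. Egr4 had 0.531, 2.30, 2.31 and 2.30 RPKM with HDAC4CA, against 0.0581, 0.271, 0.141 and 0.405 RPKM with CREB (log2 fold change 2.61 ± 0.53 SE, adjusted p = 0.016), and HDAC4CA replicate 1 was far below the other 3. Egr3 had 1.04, 2.14, 4.76 and 5.89 RPKM with HDAC4CA, against 0.264, 0.412, 0.398 and 0.755 RPKM with CREB (log2 fold change 2.51 ± 0.55 SE, adjusted p = 0.024). Both gave up their calls when single libraries were left out: Egr4 without HDAC4CA replicate 4 (adjusted p = 0.0503), and Egr3 without HDAC4CA replicate 3 or CREB replicate 1, 2 or 3 (adjusted p = 0.059, 0.068, 0.063 and 0.062). With the choroid plexus covariate neither was called (adjusted p = 0.074 for Egr4 and 0.099 for Egr3).

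Among the largest falls, Cck was the most abundant gene. Cck, the precursor of cholecystokinin (ENSMUSG00000032532.7, chr9:121489824-121495694, minus strand), had 9.62, 11.4, 11.9 and 12.8 RPKM with HDAC4CA, against 32.3, 35.8, 37.5 and 33.5 RPKM with CREB, 2.93-fold lower with HDAC4CA (log2 fold change -1.55 ± 0.080 SE, adjusted p = 8.9e-06). The mCherry libraries (33.1, 33.4, 32.3 and 33.6 RPKM) lay within the CREB range, and the HDAC4CA libraries far under both. The summed level of 6 striatal markers was 12.5 to 20.3 RPKM with HDAC4CA and 15.8 to 28.4 RPKM with CREB, and the part of striatal tissue in these falls was not tested.

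E2f1, a transcription factor of the cell cycle, had 1.36, 1.45, 1.60 and 1.32 RPKM with HDAC4CA, against 3.41, 4.47, 3.82 and 4.30 RPKM with CREB (log2 fold change -1.37 ± 0.095 SE, adjusted p = 3.4e-05). Here the mCherry libraries (1.40, 1.8999, 1.86 and 1.59 RPKM) joined the HDAC4CA libraries, and the CREB libraries stood alone. Krt20, a keratin of epithelia, was 0.727 ± 0.129 RPKM with HDAC4CA, 1.77 ± 0.425 RPKM with CREB and 0.384 ± 0.103 RPKM with mCherry (SD, n = 4 each; log2 fold change -1.11 ± 0.18 SE, adjusted p = 0.0033). Its mCherry libraries were the lowest of the 3 groups, none above 0.492 RPKM. Wnt9a, a Wnt ligand, had 0.637, 0.615, 0.696 and 0.747 RPKM with HDAC4CA, against 2.01, 2.28, 2.08 and 2.32 RPKM with CREB (log2 fold change -1.51 ± 0.099 SE, adjusted p = 3.2e-05), with mCherry at 2.00, 2.05, 1.87 and 2.33 RPKM around the CREB level. Lgi2, a secreted leucine-rich repeat protein, had 7.87, 7.84, 8.85 and 7.92 RPKM with HDAC4CA, against 18.8, 20.4, 19.1 and 19.0 RPKM with CREB (log2 fold change -1.19 ± 0.058 SE, adjusted p = 6.4e-06). The mCherry libraries of Lgi2 were between both groups, at 14.1 to 15.9 RPKM. In bulk tissue such as this, fewer cells of a type and less RNA per cell cannot be told apart.

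Among the other ranked falls were the Wnt receptor Fzd10 (-1.18 ± 0.092), the protease of the extracellular matrix Adamts15 (-1.17 ± 0.094), the membrane carbonic anhydrase Car4 (-1.11 ± 0.098), the extracellular protein cochlin, Coch (-1.44 ± 0.19), and Hsd11b1, which regenerates active glucocorticoid (-1.10 ± 0.12; log2 fold changes with SE). Their adjusted p ran from 6.1e-05 for Fzd10 to 0.0024 for Coch. Coch had 2.51, 4.48, 2.20 and 2.33 RPKM with HDAC4CA, against 8.93, 7.18, 8.19 and 7.51 RPKM with CREB, and HDAC4CA replicate 2, the HDAC4CA library richest in choroid plexus RNA, was the highest of its group for Coch. With the choroid plexus covariate Coch kept its call (adjusted p = 0.00040). Car4 and Adamts15 had mCherry means of 6.79 ± 0.461 and 1.87 ± 0.234 RPKM, near their CREB means of 6.09 ± 0.644 and 1.86 ± 0.0453 RPKM.

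**Figure D2:**
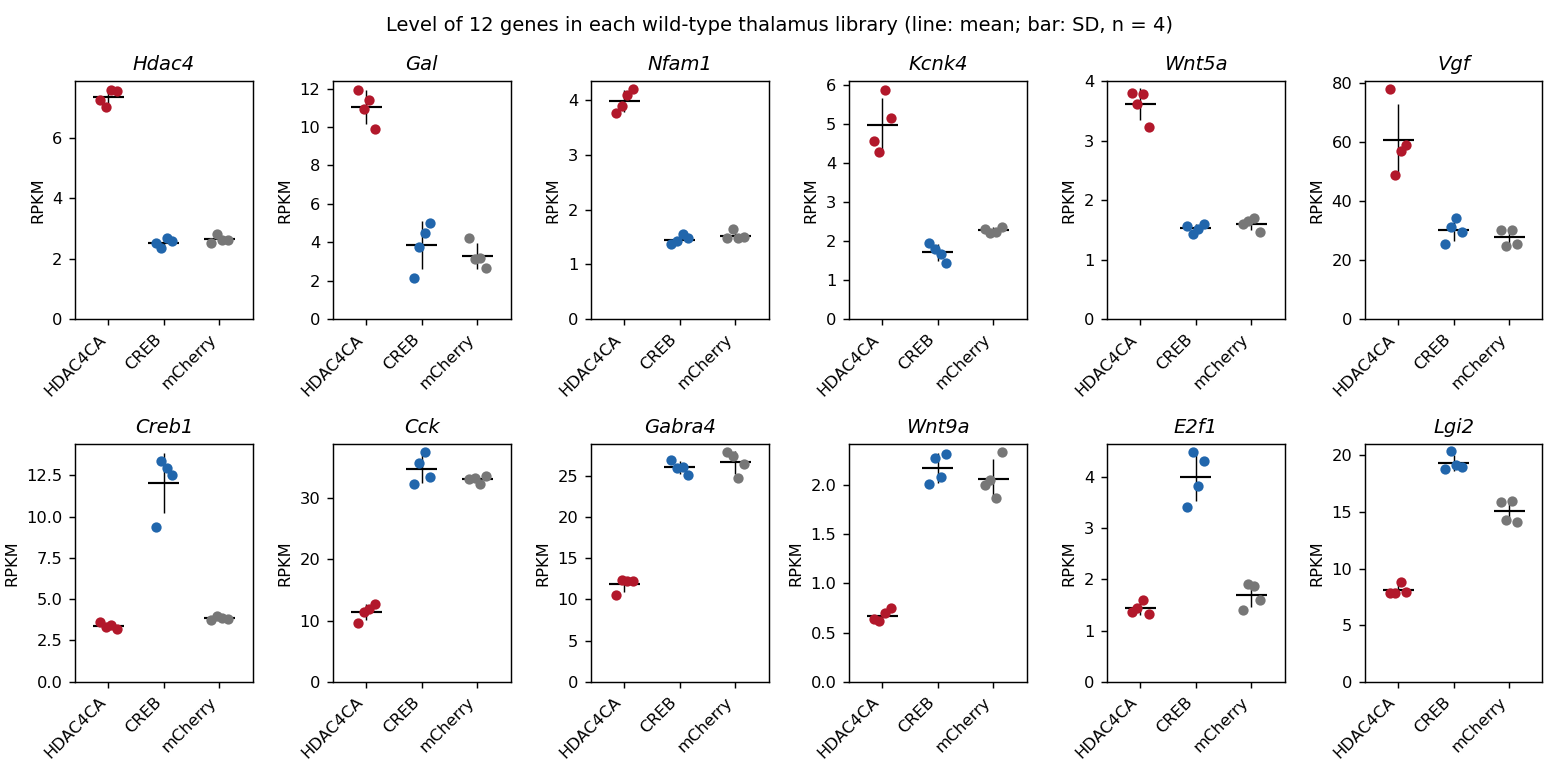
RPKM (vertical axes, linear from 0) of 12 genes in each of the 4 HDAC4CA, 4 CREB and 4 mCherry libraries of wild-type thalamus, with the group mean as a line and the SD as a bar. For Hdac4, Gal, Nfam1, Kcnk4, Wnt5a and Vgf the HDAC4CA libraries stand above the other groups, for Cck, Gabra4, Wnt9a and Lgi2 below them, and for Creb1 and E2f1 the CREB libraries stand above the other groups.

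Some members of the deacetylase family and its partners differed besides Hdac4. Of 10 tested class IIa HDACs, MEF2 factors and 14-3-3 proteins, 4 were higher (Hdac4 among them), 2 were lower and 4 were not called, the same counts without rescaling and with the choroid plexus covariate. The median log2 fold change was 0.078, against -0.015 for all tested genes. The share called was 60%, against 12.7% of all tested genes. Hdac9, another class IIa deacetylase, had 2.24, 2.27, 2.31 and 2.25 RPKM with HDAC4CA, against 4.16, 3.86, 4.23 and 3.89 RPKM with CREB (log2 fold change -0.75 ± 0.053 SE, adjusted p = 3.7e-05), and its mCherry libraries (4.51, 4.72, 4.31 and 4.37 RPKM) were above both groups. Hdac5 was 12.1 ± 0.192 RPKM with HDAC4CA and 14.5 ± 0.774 RPKM with CREB (-0.21 ± 0.043, adjusted p = 0.011), and Hdac7 gave -0.11 ± 0.082, adjusted p = 0.41. Mef2c, a MEF2 factor of neurons, had 5.65, 5.92, 6.68 and 6.32 RPKM with HDAC4CA, against 4.36, 3.57, 4.01 and 4.14 RPKM with CREB (log2 fold change 0.65 ± 0.076 SE, adjusted p = 0.00056). With mCherry, Mef2c had 5.86, 5.55, 5.10 and 5.58 RPKM, which is nearer the HDAC4CA libraries. Mef2a and Mef2d gave 0.15 ± 0.048, adjusted p = 0.076 and 0.0057 ± 0.041, adjusted p = 0.95. The 14-3-3 genes Ywhab and Ywhaz rose by 0.28 ± 0.039 and 0.30 ± 0.042 (adjusted p = 0.0015 and 0.0016).

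Of 15 CREB and ATF factors and their acetyltransferases, 1 was higher, 1 was lower (Creb1) and 13 were not called (median 0.0065). The called share of 13.3% lay near the 12.7% of all tested genes. The riser was Atf2, a stress-responsive partner of Jun, by 0.22 ± 0.041 (adjusted p = 0.0066), a call that ended without rescaling (adjusted p = 0.059). The cAMP-responsive modulator Crem gave 0.18 ± 0.093, adjusted p = 0.24, and Atf1, which binds the same element, -0.011 ± 0.084, adjusted p = 0.95. Of 12 genes of LKB1, the salt-inducible kinases and the CRTC coactivators, 1 was higher and 2 were lower (25% called). Sik1, a salt-inducible kinase and itself a CREB-induced gene, had 3.65, 4.90, 3.83 and 4.22 RPKM with HDAC4CA, against 5.85, 5.34, 5.96 and 5.77 RPKM with CREB (log2 fold change -0.41 ± 0.075 SE, adjusted p = 0.0058), and the mCherry libraries (3.60, 4.13, 3.96 and 3.26 RPKM) lay with HDAC4CA. Sik2 gave -0.16 ± 0.056, adjusted p = 0.095, Sik3 0.064 ± 0.042, adjusted p = 0.36, and Crtc1, Crtc2 and Crtc3 lay between -0.027 and 0.12 on the log2 scale with none called. Stk11, which encodes LKB1, gave -0.14 ± 0.038, adjusted p = 0.036, and Prkaa1, a catalytic subunit of AMP-activated kinase, 0.18 ± 0.047, adjusted p = 0.031. Both calls were weak. That of Stk11 ended without any 1 HDAC4CA library or CREB replicate 2, 3 or 4 (adjusted p 0.058 to 0.10). That of Prkaa1 ended without HDAC4CA or CREB replicate 2, 3 or 4 (adjusted p 0.062 to 0.088). Stk11 also overlaps exons of Cbarp on the other strand, which rose. With the choroid plexus covariate no gene of the kinase and coactivator list was called, Sik1 included (adjusted p = 0.056), and Atf2 was not called (adjusted p = 0.056).

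Within cAMP signalling, 6 of 26 genes were higher, 2 were lower and 18 were not called (median 0.057). That is 30.8% called, against 12.7% of all tested genes. Pde7b, a phosphodiesterase that breaks down cAMP, had 5.66, 6.46, 6.57 and 6.33 RPKM with HDAC4CA, against 3.98, 3.51, 3.89 and 3.91 RPKM with CREB (log2 fold change 0.75 ± 0.059 SE, adjusted p = 6.2e-05). The regulatory subunits Prkar1a and Prkar1b of protein kinase A rose by 0.25 ± 0.041 and 0.30 ± 0.050 (adjusted p = 0.0037 and 0.0039). Adcy1, a calcium-stimulated adenylyl cyclase, had 25.6, 28.9, 31.6 and 30.6 RPKM with HDAC4CA, against 42.5, 35.3, 38.6 and 36.8 RPKM with CREB (log2 fold change -0.34 ± 0.078 SE, adjusted p = 0.018), and all mCherry libraries (46.3, 48.9, 42.9 and 45.3 RPKM) were above both groups. Pde4a, another cAMP phosphodiesterase, gave 0.25 ± 0.050, adjusted p = 0.0093. With the choroid plexus covariate 3 were higher and none lower, and the calls of Adcy1 and Pde4a ended (adjusted p = 0.056 and 0.078).

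Early response genes parted. Of 23 tested, 4 were higher (Egr3, Egr4, Fosb and Junb), 2 were lower (Nr4a2 and Dusp6) and 17 were not called, with a median of 0.13. Called members made up 26.1% of those tested, against 12.7% of all tested genes. Fosb, a subunit of the AP-1 factor, had 0.305, 1.11, 0.958 and 1.76 RPKM with HDAC4CA, against 0.127, 0.187, 0.104 and 0.228 RPKM with CREB (log2 fold change 1.98 ± 0.42 SE, adjusted p = 0.016), with mCherry at 0.189 to 0.225 RPKM in the CREB range. Junb, its partner, had 5.20, 6.32, 8.38 and 11.5 RPKM with HDAC4CA, against 3.85, 4.22, 4.01 and 4.71 RPKM with CREB (log2 fold change 0.88 ± 0.23 SE, adjusted p = 0.046), and its exons overlap those of Prdx2 on the other strand. Nr4a2, the orphan nuclear receptor NURR1, went the other way, with 2.30, 2.24, 2.28 and 2.26 RPKM with HDAC4CA, against 3.278, 3.73, 3.64 and 3.71 RPKM with CREB (log2 fold change -0.59 ± 0.061 SE, adjusted p = 0.00032). Its CREB libraries all lay above its HDAC4CA libraries, and the mCherry libraries, at 2.98, 3.04, 3.15 and 3.56 RPKM, lay above HDAC4CA and reached into the CREB range. Dusp6, a phosphatase that limits ERK signalling, changed by -0.44 ± 0.12 (adjusted p = 0.034), a call lost without HDAC4CA replicate 2 or 3 or any 1 CREB library (adjusted p 0.0503 to 0.088). Fos gave 0.46 ± 0.23, adjusted p = 0.24, Arc -0.0087 ± 0.17, adjusted p = 0.98 and Nr4a1 0.13 ± 0.17, adjusted p = 0.68. The count moved with single libraries: 2 higher and 1 lower without HDAC4CA replicate 3 or CREB replicate 1, 2 or 3, and 0 higher with limma-voom or the choroid plexus covariate. Junb lost its call without HDAC4CA replicate 3 (adjusted p = 0.11) or any 1 CREB library (adjusted p = 0.11, 0.094, 0.11 and 0.079).

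Textbook targets of CREB and MEF2 were called in both directions, 23.5% of the tested CREB targets and 18.8% of the tested MEF2 targets, against 12.7% of all tested genes. Of 17 tested CREB targets, 2 were higher (Vgf and Junb), 2 were lower (Nr4a2 and Sik1) and 13 were not called, and Bdnf gave 0.17 ± 0.11, adjusted p = 0.34. Vgf encodes a secreted neuropeptide precursor. It had 78.1, 48.9, 56.9 and 59.0 RPKM with HDAC4CA, against 25.6, 31.3, 34.2 and 29.7 RPKM with CREB (log2 fold change 1.04 ± 0.15 SE, adjusted p = 0.0033), so the textbook CREB target was higher in the group that did not receive CREB, and its mCherry libraries (30.4, 24.9, 30.2 and 25.4 RPKM) overlapped the CREB range. Of 16 tested MEF2 targets, 1 was higher, 2 were lower (Hdac9 and Myom1) and 13 were not called. Of 13 tested muscle genes, 3 were lower and 1 was higher (30.8% called), the same without rescaling. Cacna1s, the calcium channel subunit of skeletal muscle, had 0.0747, 0.0716, 0.0900 and 0.141 RPKM with HDAC4CA, against 1.02, 1.94, 1.57 and 1.63 RPKM with CREB, 8.11-fold lower with HDAC4CA (log2 fold change -3.02 ± 0.19 SE, adjusted p = 2.8e-05). With mCherry it had 0.289, 0.240, 0.291 and 0.249 RPKM, above all HDAC4CA libraries and below all CREB libraries, and its exons overlap Gm37759 on the other strand. Tnnt1, a troponin T, had 8.61, 8.51, 7.58 and 9.68 RPKM with HDAC4CA, against 17.2, 12.7, 16.003 and 13.7 RPKM with CREB (log2 fold change -0.73 ± 0.11 SE, adjusted p = 0.0025), and Tnnc1, a troponin C, changed by -0.60 ± 0.13 (adjusted p = 0.015). Atp2a1, the calcium pump of the sarcoplasmic reticulum, rose by 0.79 ± 0.12 (adjusted p = 0.0021).

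Neuropeptide precursors split as Gal and Cck did. Of 21 tested, 3 were higher (Gal, Vgf and Chga), 2 were lower (Cck and Npy) and 16 were not called, with a median of 0.056. This share of 23.8% called compares with 12.7% of all tested genes. Without CREB replicate 2 the counts were 6 and 2. Npy, which encodes neuropeptide Y, had 3.94, 5.05, 3.65 and 3.07 RPKM with HDAC4CA, against 5.80, 6.40, 5.82 and 6.99 RPKM with CREB (log2 fold change -0.62 ± 0.12 SE, adjusted p = 0.0091), and its mCherry libraries (8.05, 5.90, 6.20 and 6.49 RPKM) lay within and above the CREB range. With the choroid plexus covariate the call of Npy ended (adjusted p = 0.076). Chga, a granin of secretory vesicles, gave 0.21 ± 0.057, adjusted p = 0.035, with overlapping groups; the call was lost in 5 of the 8 fits with 1 library left out, without HDAC4CA replicate 3 or 4 or CREB replicate 1, 2 or 4 (adjusted p 0.077 to 0.094). Sst, the somatostatin precursor, gave 0.29 ± 0.10, adjusted p = 0.11 and Penk, the enkephalin precursor, -0.46 ± 0.31, adjusted p = 0.38. The 11 hypothalamic markers, which include Gal, summed to 96.4 to 144 RPKM with HDAC4CA and 63.5 to 166 RPKM with CREB, so their sums overlapped while Gal itself did not.

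On the receiving side 7 of 26 neuropeptide receptors were higher and none was lower (median 0.16). The share called higher was 26.9%, against 6.97% of all tested genes. Without rescaling 6 were higher, but with the choroid plexus covariate 1, and of the genes named here Galr1, Sstr3, Oprm1 and Hcrtr1 lost their calls there (adjusted p 0.074 to 0.12). Ntsr1, a neurotensin receptor, had 1.72, 1.72, 1.80 and 1.68 RPKM with HDAC4CA, against 0.955, 1.05, 1.26 and 1.17 RPKM with CREB (log2 fold change 0.65 ± 0.082 SE, adjusted p = 0.00088). Galr1, a receptor of galanin, had 2.46, 2.54, 1.88 and 2.15 RPKM with HDAC4CA, against 0.869, 1.64, 1.40 and 1.45 RPKM with CREB (log2 fold change 0.79 ± 0.17 SE, adjusted p = 0.014), so ligand and receptor were both higher with HDAC4CA. The somatostatin receptor Sstr3 rose by 0.48 ± 0.098 and the opioid receptor Oprm1 by 0.41 ± 0.085 (adjusted p = 0.011 and 0.012). Hcrtr1, a receptor of the wake-promoting orexins, had 0.625, 0.785, 0.920 and 0.694 RPKM with HDAC4CA, against 0.207, 0.431, 0.548 and 0.395 RPKM with CREB (log2 fold change 0.87 ± 0.20 SE, adjusted p = 0.018), a call that ended without HDAC4CA replicate 3 (adjusted p = 0.057). The cholecystokinin receptors Cckar and Cckbr gave 0.34 ± 0.16, adjusted p = 0.20 and 0.17 ± 0.13, adjusted p = 0.47.

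GABA-A receptor subunits, which form the chloride channel of fast inhibition, changed in both directions. Of 12 subunits, 2 were higher, 4 were lower and 6 were not called, with a median of -0.067. Thus 50% were called, against 12.7% of all tested genes. Gabra4, an alpha subunit of extrasynaptic thalamic receptors, had 10.5, 12.4, 12.3 and 12.2 RPKM with HDAC4CA, against 27.0, 26.0, 26.0 and 25.1 RPKM with CREB, 2.11-fold lower with HDAC4CA (log2 fold change -1.08 ± 0.058 SE, adjusted p = 9.5e-06). Its mCherry libraries (27.9, 27.4, 24.8 and 26.4 RPKM) lay around the CREB level. Gabrd, the delta subunit that joins alpha-4 outside synapses, had 6.94, 8.75, 10.1 and 9.19 RPKM with HDAC4CA, against 14.04, 13.3, 12.9 and 13.2 RPKM with CREB (log2 fold change -0.56 ± 0.10 SE, adjusted p = 0.0061). Gabrb1 and Gabrb2, beta subunits, changed by -0.34 ± 0.045 and -0.25 ± 0.053 (adjusted p = 0.0011 and 0.012). The exons of Gabrb1 and Gabra4 overlap on opposite strands, so some of their reads may be shared. Of 10 genes of GABA-B receptors and of GABA synthesis and transport, 2 were higher and 2 were lower (40% called). Gabbr1, a GABA-B receptor subunit, rose by 0.42 ± 0.052, and Gad1, which makes GABA, changed by -0.27 ± 0.056 (adjusted p = 0.00088 and 0.011).

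The called ionotropic glutamate receptors were all higher, 41.2% of those tested, against 6.97% of all tested genes. Of 17, 7 were higher, none was lower and 10 were not called (median 0.13), but without rescaling 3 were higher and 1 was lower, with the choroid plexus covariate 3 were higher, and without HDAC4CA replicate 3 or 4 the count was 4. Grin2d, an NMDA receptor subunit, had 5.14, 5.57, 5.36 and 5.43 RPKM with HDAC4CA, against 3.65, 3.76, 4.15 and 3.89 RPKM with CREB (log2 fold change 0.52 ± 0.044 SE, adjusted p = 9.5e-05). The mCherry libraries of Grin2d (5.57, 5.16, 5.19 and 5.08 RPKM) lay with HDAC4CA. Gria1, an AMPA receptor subunit, rose by 0.33 ± 0.041, and Grid1, of the delta family, by 0.32 ± 0.051 (adjusted p = 0.00077 and 0.0033). Of 7 metabotropic receptors, 2 were higher and 2 were lower (57.1% called, against 12.7% of all tested genes). For the metabotropic list 1 higher and 1 lower call were left without HDAC4CA replicate 4 or CREB replicate 1 or 2. Of 32 monoamine and acetylcholine receptors, 3 were higher and 3 were lower (18.75% called). Chrnb2, the beta subunit of the main nicotinic receptor of thalamus, had 19.3, 19.4, 22.2 and 20.6 RPKM with HDAC4CA, against 13.6, 14.5, 15.4 and 15.1 RPKM with CREB (log2 fold change 0.53 ± 0.055 SE, adjusted p = 0.00032), with exons that overlap Adar on the other strand. For this list 1 higher and 2 lower calls were left without HDAC4CA replicate 3 or 4 or CREB replicate 2, 3 or 4.

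Potassium channels outside the voltage-gated family gave more falls than rises, with Kcnk4 the 1 called rise. Of 20, 7 were lower, 1 was higher and 12 were not called, with a median of -0.21. Calls made up 40% of these 20 genes, against 12.7% of all tested genes. Without rescaling 12 were lower, and without CREB replicate 2, 4 were. Kcnj3 and Kcnj9, subunits of the G-protein-gated channels that inhibitory receptors open, had 10.2, 10.6, 10.7 and 9.71 RPKM with HDAC4CA, against 16.4, 16.03, 16.4 and 15.9 RPKM with CREB for Kcnj3 (log2 fold change -0.60 ± 0.041 SE, adjusted p = 3.3e-05) and 14.7, 15.2, 15.9 and 13.8 RPKM with HDAC4CA, against 22.7, 21.9, 24.1 and 22.3 RPKM with CREB for Kcnj9 (log2 fold change -0.55 ± 0.041 SE, adjusted p = 4.8e-05). In both genes the mCherry libraries lay at or near the CREB level, at 17.2, 18.5, 17.0 and 17.0 RPKM for Kcnj3 and 21.9, 22.6, 20.52 and 21.6 RPKM for Kcnj9. Kcnk1, a leak channel, changed by -0.38 ± 0.046 and Kcnmb4, a subunit of calcium-activated channels, by -0.38 ± 0.086 (adjusted p = 0.00076 and 0.018). Among 29 voltage-gated potassium channel genes, 2 were higher and 5 were lower (24.1% called). Kcnc2, a channel of fast-spiking neurons, had 52.3, 56.9, 60.2 and 55.5 RPKM with HDAC4CA, against 39.4, 34.4, 38.2 and 35.8 RPKM with CREB (log2 fold change 0.66 ± 0.053 SE, adjusted p = 7.3e-05). Kcna4, of the transient A current, had 4.88, 4.84, 5.05 and 4.62 RPKM with HDAC4CA, against 8.63, 6.95, 8.13 and 8.26 RPKM with CREB (log2 fold change -0.65 ± 0.066 SE, adjusted p = 0.00025), and Kcnip4, an auxiliary subunit of A-type channels, changed by -0.47 ± 0.047 (adjusted p = 0.00024).

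Calcium and sodium channel genes gave more rises than falls, while of the pacemaker channels Hcn2 and Hcn4 fell and Hcn3 rose. Of 18 voltage-gated calcium channel genes, 6 were higher and 1 was lower, Cacna1d, an L-type channel (-0.19 ± 0.051, adjusted p = 0.034), a call that was lost without any 1 library other than CREB replicate 2. Calls made up 38.9% of the calcium channel list, against 12.7% of all tested genes. The counts were 4 higher and 0 lower without HDAC4CA replicate 3 or 4 or CREB replicate 3, and 3 higher with the choroid plexus covariate. The auxiliary subunits Cacng3 and Cacng8, which also escort AMPA receptors, had 6.22, 7.54, 6.82 and 6.55 RPKM with HDAC4CA, against 3.46, 4.20, 4.35 and 4.49 RPKM with CREB for Cacng3 (log2 fold change 0.76 ± 0.073 SE, adjusted p = 0.00019) and 7.81, 8.49, 7.92 and 7.99 RPKM with HDAC4CA, against 5.27, 5.63, 5.76 and 5.43 RPKM with CREB for Cacng8 (log2 fold change 0.59 ± 0.042 SE, adjusted p = 3.7e-05). Cacna1i, a T-type channel of thalamic burst firing, rose by 0.29 ± 0.046 (adjusted p = 0.0029). Of 13 sodium, leak and HCN channels, 6 were higher and 2 were lower (61.5% called). Hcn2, the pacemaker channel of relay neurons, had 44.5, 46.2, 51.3 and 49.0 RPKM with HDAC4CA, against 58.2, 59.1, 61.9 and 61.2 RPKM with CREB (log2 fold change -0.28 ± 0.050 SE, adjusted p = 0.0056), and Hcn4 gave -0.36 ± 0.079, adjusted p = 0.015. Hcn3 rose by 0.43 ± 0.082 and Scn3b, a sodium channel beta subunit, by 0.32 ± 0.060 (adjusted p = 0.0077 and 0.0066). With the choroid plexus covariate 3 were higher and 2 lower, and Hcn3 lost its call (adjusted p = 0.061).

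Wnt signalling genes changed at several levels of the pathway. Of 24 ligands, receptors and antagonists, 6 were higher and 4 were lower (41.7% called, against 12.7% of all tested genes). Without rescaling the counts were the same, and 9 to 11 were called with any 1 library left out. Among the ligands of the list, Wnt5a, Wnt10a and Wnt3 rose and Wnt9a fell. The ligand Wnt9b and the receptor Fzd10, which are not in the list, also fell (log2 fold change -0.43 ± 0.098 SE, adjusted p = 0.017 for Wnt9b), and the call of Wnt9b ended with the choroid plexus covariate (adjusted p = 0.11). Wnt3 had 7.30, 7.86, 7.24 and 8.30 RPKM with HDAC4CA, against 4.79, 6.04, 6.00 and 5.82 RPKM with CREB (log2 fold change 0.49 ± 0.077 SE, adjusted p = 0.0029), and Wnt10a rose by 0.77 ± 0.12 (adjusted p = 0.0028). Among the receptors of the list, Fzd5 and Fzd1 fell. Fzd5 had 0.629, 0.666, 0.548 and 0.601 RPKM with HDAC4CA, against 1.26, 1.05, 1.28 and 1.21 RPKM with CREB (log2 fold change -0.82 ± 0.097 SE, adjusted p = 0.00061), and Fzd1 changed by -0.45 ± 0.067 (adjusted p = 0.0024). Of negative regulators, Frzb, a secreted antagonist, had 1.06, 0.843, 1.05 and 1.03 RPKM with HDAC4CA, against 0.514, 0.514, 0.723 and 0.416 RPKM with CREB (log2 fold change 0.84 ± 0.15 SE, adjusted p = 0.0047), and Axin2, a feedback gene of the canonical pathway, gave -0.31 ± 0.079, adjusted p = 0.027. Tcf7l2, the nuclear effector that marks thalamic neurons, gave 0.28 ± 0.052, adjusted p = 0.0060.

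Cholesterol synthesis had the largest called share of the pathway lists, 68.75%. All its calls were higher, against 6.97% of all tested genes called higher. Of its 16 genes, 11 were higher, none was lower and 5 were not called (median 0.30), and 11 were higher in every fit with 1 library left out. Without rescaling 9 were higher, and with the choroid plexus covariate 5. Srebf2, the transcription factor that drives the pathway, rose by 0.30 ± 0.039 and the sterol sensor Insig1 by 0.36 ± 0.059 (adjusted p = 0.0010 and 0.0034).

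**Figure D3:**
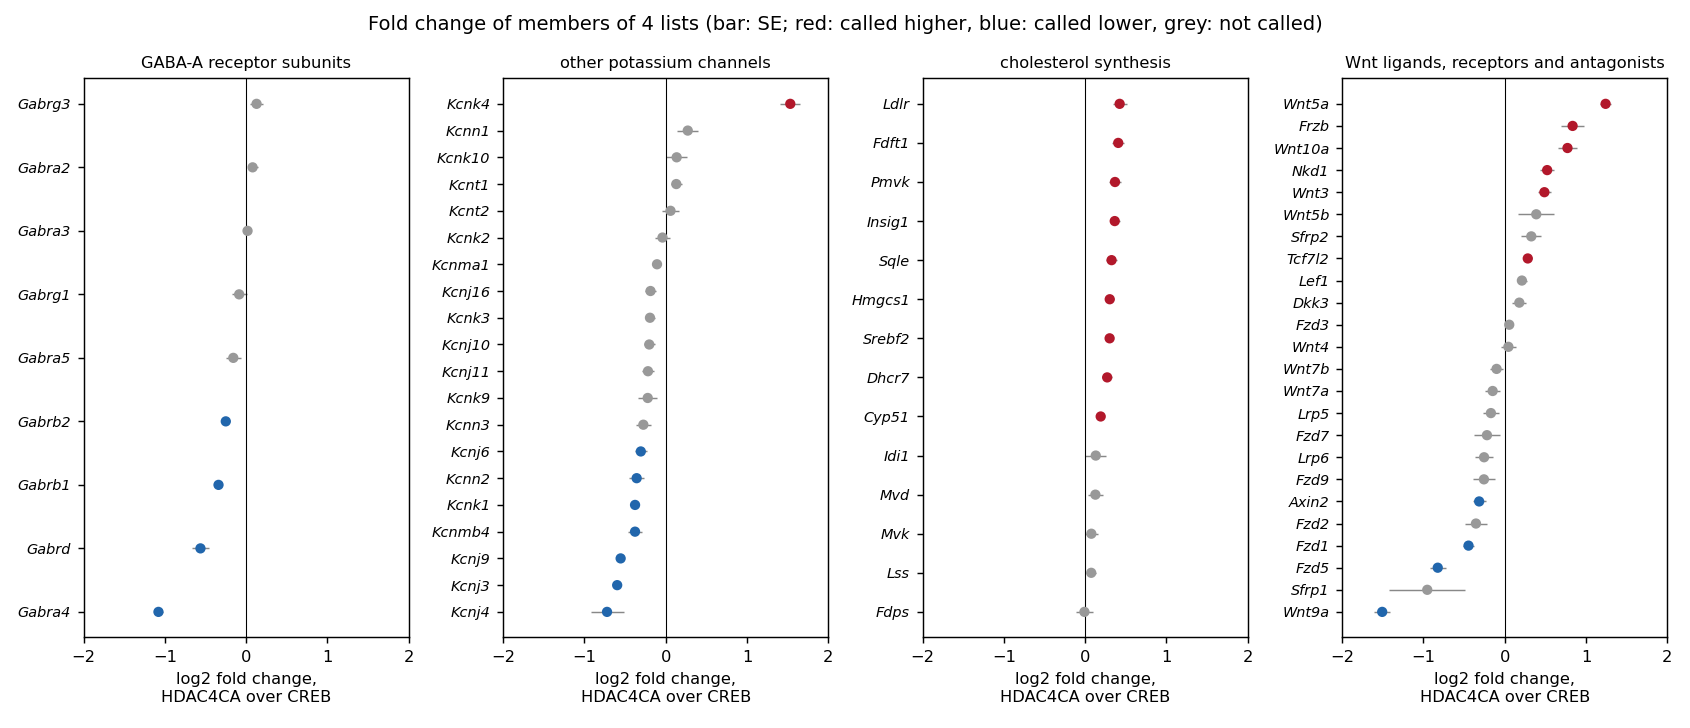
Log2 fold change of HDAC4CA over CREB with its SE for members of 4 lists, GABA-A receptor subunits, other potassium channels, cholesterol synthesis, and Wnt ligands, receptors and antagonists. Called higher genes are red, called lower genes blue and genes that were not called grey. The called cholesterol genes all sit right of 0, the called potassium channels left of it apart from Kcnk4, and the other 2 lists spread to both sides.

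Rises outnumbered falls among presynaptic genes, and all were small. Of the presynaptic list 50% were called, against 12.7% of all tested genes. Of 22 genes of vesicle release, 9 were higher, 2 were lower and 11 were not called (median 0.16), but without rescaling 4 were higher and 2 lower, and with the choroid plexus covariate 2 were higher and 2 lower, so the excess of rises ended there. Syn1, which tethers vesicles, had 70.8, 73.3, 80.4 and 75.9 RPKM with HDAC4CA, against 57.8, 59.9, 63.9 and 60.6 RPKM with CREB (log2 fold change 0.36 ± 0.046 SE, adjusted p = 0.00088), and the SNARE protein gene Vamp2 rose by 0.23 ± 0.045 (adjusted p = 0.0092). Bsn, the active zone scaffold bassoon, changed by -0.29 ± 0.047 (adjusted p = 0.0034). On the postsynaptic side 5 of 25 were higher and 2 were lower (28% called). The counts were 4 higher and 3 lower without rescaling, and 2 higher and 3 lower with the choroid plexus covariate. Lrrtm1, a synaptic adhesion protein, had 16.8, 19.1, 19.4 and 18.4 RPKM with HDAC4CA, against 29.5, 27.2, 31.5 and 29.3 RPKM with CREB (log2 fold change -0.62 ± 0.046 SE, adjusted p = 4.8e-05), and Homer2, a scaffold of metabotropic receptors, changed by -0.48 ± 0.063 (adjusted p = 0.0011). Dlg4, which encodes PSD-95, rose by 0.29 ± 0.051 and Nptx1, a pentraxin, by 0.43 ± 0.089 (adjusted p = 0.0044 and 0.011), and the call of Nptx1 ended with the covariate (adjusted p = 0.093). Of 22 cadherins and protocadherins, 4 were higher and none was lower (18.2% called), with 1 higher without rescaling.

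Other lists held few called members, or counts that moved with single libraries, with shares on both sides of the 12.7% of all tested genes. The called share was 28.6% for heat shock, 21.1% for clock, 19.2% for growth factor, 16.7% for chaperone and 15.8% for interferon genes. It was 8.33% for corepressor, 5.80% for respiratory chain and 1.61% for ribosomal protein genes. Of 19 clock genes, 2 were higher and 2 were lower, and Bhlhe40, a repressor in the clock and in stress responses, had 15.97, 18.0, 22.1 and 22.2 RPKM with HDAC4CA, against 11.8, 11.9, 11.8 and 11.8 RPKM with CREB (log2 fold change 0.76 ± 0.10 SE, adjusted p = 0.0016). The clock count ran from 1 to 6 with 1 library left out (1 without HDAC4CA replicate 4 or CREB replicate 2 or 3). Of 69 nuclear-encoded respiratory chain genes 1 was higher and 3 were lower, and of 62 ribosomal protein genes none was higher and 1 was lower. Ribosomal protein genes stood low here, as Gapdh did. Their mean log2 level was 2.05 to 2.25 in these 8 libraries and 4.57 to 5.04 in Sleepy thalamus, and the cause was not tested. Of 14 heat shock genes 2 were higher and 2 were lower, of 18 endoplasmic reticulum chaperone genes 1 and 2, of 26 growth factors and receptors 1 and 4, of 19 interferon genes 3 and 0, and of 12 corepressor genes 1 and 0. With 1 library left out, the number called ran from 1 to 3 for heat shock, 0 to 4 for chaperones, 1 to 8 for growth factors and 0 to 2 for interferon genes. Without CREB replicate 4 the higher and lower counts were 1 and 0 for heat shock, 0 and 0 for chaperones, 1 and 2 for growth factors, and 0 and 0 for interferon genes.

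**Figure D4:**
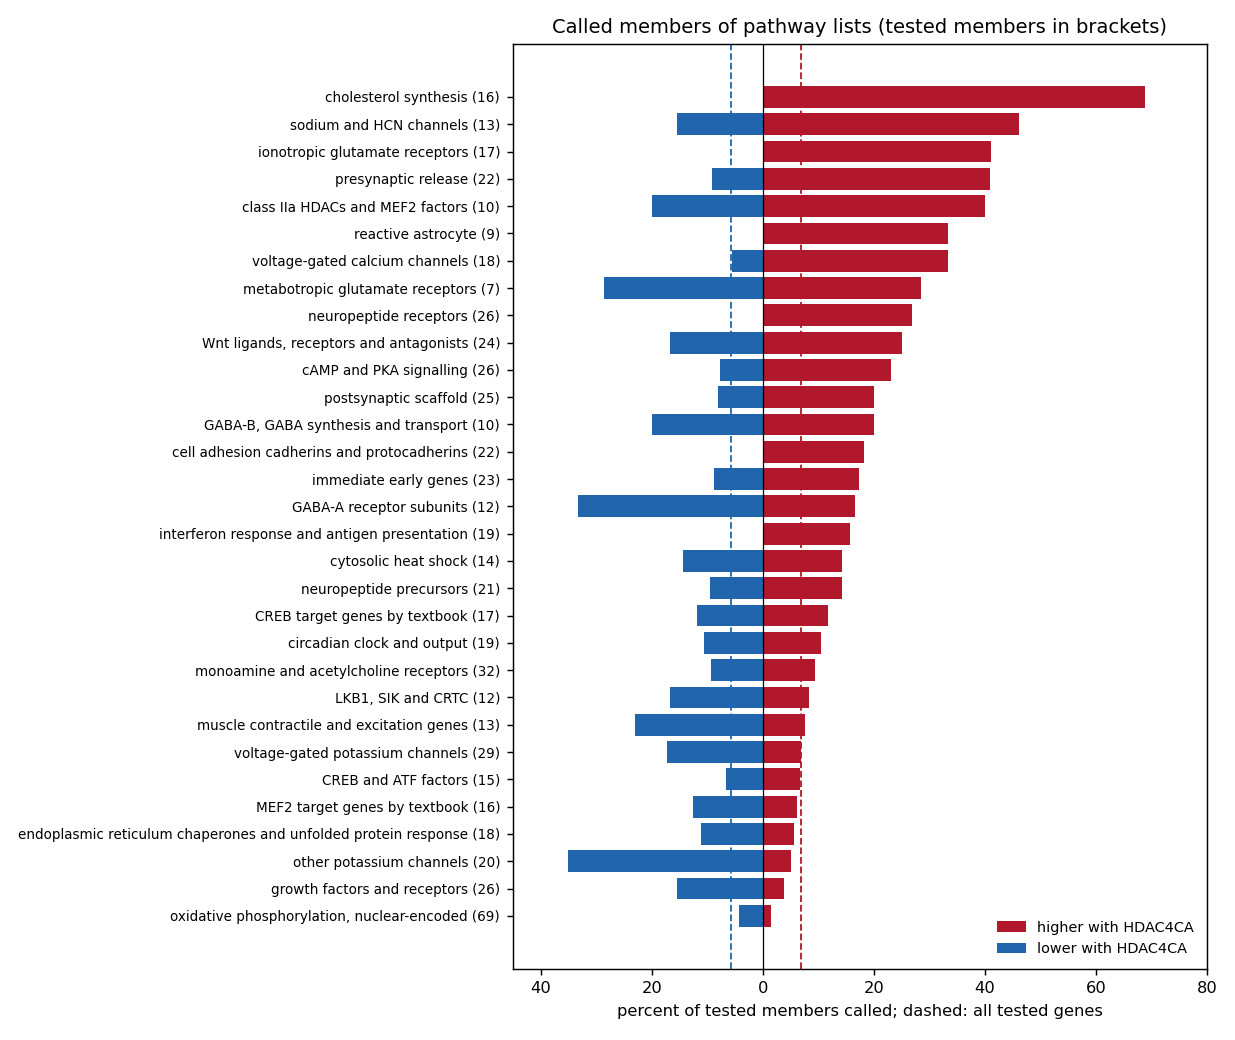
Percent of tested members called higher with HDAC4CA (red, right of 0) or lower (blue, left of 0) for each pathway list with at least 2 called members, with the number tested in brackets. Dashed lines mark the share of all tested genes, 6.97% higher and 5.70% lower, and cholesterol synthesis reaches 11 of 16 on the right.

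Marker sums of astrocytes and of cortex did not overlap between HDAC4CA and CREB, and those of the other marker lists did. Astrocyte markers summed to 456 to 502 RPKM with HDAC4CA, 537 to 568 RPKM with CREB and 499 to 514 RPKM with mCherry. Of the 8 markers, 3 were called lower (37.5%, against 5.70% of all tested genes). Aqp4, the water channel of astrocyte endfeet, had 31.1, 27.3, 31.4 and 22.9 RPKM with HDAC4CA, against 40.1, 41.9, 37.8 and 39.1 RPKM with CREB (log2 fold change -0.45 ± 0.096 SE, adjusted p = 0.014), and Slc4a4 and Slc1a2 changed by -0.29 ± 0.053 and -0.18 ± 0.047; Slc1a2 lost its call without HDAC4CA replicate 4 or CREB replicate 1, 2 or 4 (adjusted p = 0.057, 0.074, 0.081 and 0.063). Of 9 reactive astrocyte genes, 3 were higher and none was lower (33.3% called higher, against 6.97% of all tested genes). Of these, Cd44, a hyaluronan receptor, rose by 0.66 ± 0.13 and the complement gene C4b by 0.55 ± 0.11 (adjusted p = 0.0098 and 0.0089), and both calls ended with the choroid plexus covariate (adjusted p = 0.064 and 0.083).

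Cortical markers summed to 48.1 to 56.6 RPKM with HDAC4CA, 35.9 to 40.6 RPKM with CREB and 43.7 to 49.9 RPKM with mCherry. Slc17a7, the vesicular glutamate transporter of cortical neurons, was the largest part of this sum, with 27.1, 31.0, 34.9 and 34.3 RPKM with HDAC4CA, against 20.9, 17.6, 19.2 and 19.8 RPKM with CREB (log2 fold change 0.76 ± 0.086 SE, adjusted p = 0.00058), and Lamp5, a marker of cortical neurons, rose by 0.61 ± 0.18 (adjusted p = 0.049). The cortical transcription factor Tbr1 gave -0.13 ± 0.24, adjusted p = 0.76. Lamp5 kept its call without CREB replicate 4 and lost it without any other 1 library (adjusted p 0.065 to 0.12). Oligodendrocyte markers summed to 880 to 1035 RPKM with HDAC4CA and 1011 to 1204 RPKM with CREB, with 0 of 10 called. Microglial markers summed to 90.8 to 110 RPKM with HDAC4CA and 85.9 to 94.2 RPKM with CREB, and C1qb, a complement gene, rose by 0.38 ± 0.067 (adjusted p = 0.0051), 1 of 2 microglial markers called. All 11 choroid plexus markers had negative fold changes, with a median of -2.25, and none was called. Their sum was 7.47 to 1582 RPKM with HDAC4CA and 268 to 1323 RPKM with CREB. Every marker of these lists was above 0 in at least 1 library. The part of unequal cell content in the gene lists above was not tested beyond the choroid plexus covariate.

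The mCherry libraries give a control level for each gene. Of the 2124 called genes, the mCherry mean was nearer the CREB mean for 66.7%, against 57.5% of all tested genes. The share was 70.7% for the genes higher with HDAC4CA and 61.8% for those lower. The mCherry mean lay between both group means for 73.6% of called genes and 41.7% of all tested. Calling picks genes whose HDAC4CA and CREB means lie far apart, which by itself raises the share between them. No conclusion is drawn from the gap between these shares. Gal, Cck, Nfam1, Wnt5a, Wnt9a, Gabra4 and Vgf are examples with mCherry in or near the CREB range, and Creb1, E2f1 and Sik1 are examples with mCherry nearer HDAC4CA.

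Promoter windows were searched for the CRE and for the MEF2 site, the elements that CREB and the MEF2 partners of HDAC4 bind. The palindrome TGACGTCA occurred in 38 of 691 lower genes with a RefSeq window (5.50%), in 20 of 807 higher genes (2.48%), in 410 of 11624 tested genes (3.53%) and in 1.79% of all 32851 windows of the table. The short motif TGACG, searched on both strands and contained in the palindrome, occurred in 39.2% of lower genes, 31.4% of higher genes, 34.1% of tested genes and 20.8% of all windows. The MEF2 site occurred in 3.33% of lower genes, 0.991% of higher genes, 2.21% of tested genes and 3.19% of all windows. These shares are descriptions without a test. Of the 24 ranked genes 18 had a window, of which 6 held a short motif and 1, Th, a palindrome, and Th was higher with HDAC4CA. The 6 with a short motif were Cck and E2f1, lower with HDAC4CA, and Gal, Egr4, Th and Hdac4, higher with HDAC4CA. The windows of E2f1, Th and Hdac4 lie inside these genes as GENCODE places them. Called genes also had their own levels and lengths, again given without a test: the median level was 8.61 RPKM for higher genes, 4.94 RPKM for lower genes and 3.01 RPKM for all tested, and the median gene span 28.4, 22.8 and 21.8 kb.

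In Sleepy thalamus the same contrast gave similar fold changes. There 2417 of 16884 genes were called (14.3%), 1359 higher and 1058 lower, from libraries that share none with wild-type thalamus. Of the 2107 genes called in wild-type thalamus and also tested there, 2057 (97.6%) had the same sign, 1317 were called in the same direction (62.5% of the 2107 and 54.5% of the Sleepy calls) and 0 in the opposite one. Across those genes the fold changes correlated with r = 0.92, a description over genes, which are not independent. Cck, in FPKM, was 12.7 ± 2.93 with HDAC4CA and 41.7 ± 5.03 with CREB (SD, n = 4 each; log2 fold change -1.60 ± 0.13), Gal 1.36 ± 0.27, Kcnk4 1.95 ± 0.094, Wnt9a -1.88 ± 0.13 and Nfam1 1.96 ± 0.12, all called. Th was not called there (-0.69 ± 0.50, adjusted p = 0.41), and its difference between genotypes was not called either (adjusted p = 0.81). Of 16 cholesterol genes 9 were higher and 0 lower in Sleepy thalamus, against 1 and 0 in wild-type cortex and 0 and 0 in wild-type hypothalamus. Of 20 potassium channels outside the voltage-gated family 1 was higher and 9 were lower in Sleepy thalamus (1 and 5 in cortex, 0 and 1 in hypothalamus), and of 22 presynaptic genes 11 were higher and 3 were lower (4 and 4 in cortex, 0 and 0 in hypothalamus). Some lists differed from wild-type thalamus in their counts: of 18 chaperone genes 0 were higher and 6 lower in Sleepy thalamus, of 29 voltage-gated potassium channel genes 6 were higher and 3 lower, and of 23 early response genes 5 were higher and 4 lower, with a median of -0.073. Differences between list counts were not tested.

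The difference between wild-type and Sleepy thalamus was called for 1 gene of 16924 (0.00591%), with 931 at an unadjusted p under 0.05. That gene was Creb1, at 2.15 ± 0.218 FPKM with HDAC4CA and 17.1 ± 2.00 FPKM with CREB in Sleepy thalamus (log2 fold change -2.82 ± 0.099). Its fall was larger in the Sleepy set by 1.09 ± 0.15, adjusted p = 0.022. That set also differed in unit and in Gapdh level, and Creb1 reads may come from the virus. Genotype, kind of library and amount of virus RNA therefore cannot be told apart here. The call ended without HDAC4CA replicate 3 or 4 or CREB replicate 3 or 4 of wild type, and without 6 of the 8 Sleepy libraries. Across the 16 fits with 1 library left out the count ran from 0 to 2, and limma-voom gave 0.

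In wild-type cortex part of these genes behaved differently. The genes named for a difference between tissues are the largest called ones, whose HDAC4CA and CREB libraries did not overlap in at least 1 of the tissues. There 955 of 15984 genes were called (5.97%). Of 2038 thalamus calls tested in cortex, 1533 (75.2%) had the same sign, 288 were called in the same direction and 42 in the opposite one. The difference between regions was called for 769 of 16557 genes (4.64%), 430 more positive in thalamus and 339 more negative. Both cortex libraries numbered 4 stood apart from the other 6, with Gapdh at 6.47 RPKM with HDAC4CA and 5.85 RPKM with CREB against 51.4 to 59.7 RPKM, near the thalamus libraries. The cause was not tested. The other 6 cortex libraries differed from the thalamus libraries in this level as well as in region. Region and kind of library therefore cannot be told apart in the called differences. Without both cortex libraries numbered 4, cortex gave 433 calls and the difference 544. Single libraries moved the count of differences to 505 (without HDAC4CA thalamus replicate 3), 489 (without CREB thalamus replicate 2) and 1238 (without HDAC4CA cortex replicate 1).

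Cck, lower with HDAC4CA in thalamus, was 85.0 ± 19.6 RPKM with HDAC4CA and 64.2 ± 5.11 RPKM with CREB in cortex (0.44 ± 0.11, adjusted p = 0.055), and the difference of -1.98 ± 0.15, adjusted p = 7.1e-06 was called. Frzb had opposite signs, with 0.84 ± 0.15 in thalamus and -1.98 ± 0.17, adjusted p = 0.00062 in cortex (0.922 ± 0.266 RPKM with HDAC4CA and 4.01 ± 0.413 RPKM with CREB), a difference of 2.82 ± 0.23, adjusted p = 7.5e-06. Tex40 gave -0.33 ± 0.11, adjusted p = 0.11 in cortex and differed by 2.12 ± 0.24, adjusted p = 0.00015. Cort, the cortistatin precursor of cortical interneurons, averaged 0.0800 ± 0.0317 RPKM with HDAC4CA and 0.0307 ± 0.0355 RPKM with CREB in thalamus and was not tested there. In cortex Cort was 0.544 ± 0.170 RPKM with HDAC4CA and 5.24 ± 0.895 RPKM with CREB (-3.02 ± 0.18, adjusted p = 0.00019). Cort passed the filter on low values through the cortex libraries and lay near or below the added 0.1 in thalamus, so its difference between regions restates the fall in cortex. Wnt9b and Tnnc1, both lower in thalamus, gave 2.16 ± 0.54, adjusted p = 0.055 and 1.22 ± 0.38, adjusted p = 0.11 in cortex. Their differences of -2.65 and -1.81 were called (adjusted p = 0.017 and 0.021). In cortex Wnt9b was 0.536 ± 0.495 RPKM with HDAC4CA and 0.0113 ± 0.0131 RPKM with CREB (SD). Its CREB level there lay below the added 0.1, so the size of its cortex value and of its difference is uncertain. Without both cortex libraries numbered 4 the difference of Tnnc1 was no longer called (adjusted p = 0.076). Lgi2 and Wnt9a fell in both regions, in cortex with -1.18 ± 0.069, adjusted p = 0.00017 for Lgi2 and -1.10 ± 0.12, adjusted p = 0.0014 for Wnt9a.

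Hypothalamus gave the fewest calls of the 4 sets. There 32 of 16438 genes were called (0.195%), 25 higher and 7 lower, with 1869 at an unadjusted p under 0.05. Of 2048 thalamus calls tested there, 1560 (76.2%) had the same sign and 13 were called, all in the same direction. The transgene readouts were smaller too. Hdac4 gave 0.82 ± 0.067, adjusted p = 0.0014 and Creb1 -0.59 ± 0.064, adjusted p = 0.0051 in hypothalamus, and the differences from thalamus (0.72, adjusted p = 0.00022 for Hdac4 and -1.16, adjusted p = 5.8e-05 for Creb1) were called. The same held against cortex, where Hdac4 gave 0.79 ± 0.084, adjusted p = 0.0012 and Creb1 -0.95 ± 0.071, adjusted p = 0.00039, with differences of 0.76, adjusted p = 0.00062 and -0.78, adjusted p = 0.0027.

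The difference between thalamus and hypothalamus was called for 486 of 16708 genes (2.91%), 236 more positive in thalamus and 250 more negative; without rescaling 102 and 304, with median-of-ratios scaling 316 and 225. Cck gave 0.42 ± 0.22, adjusted p = 0.54 in hypothalamus and differed by -1.97 ± 0.26, adjusted p = 0.00069, and Npy gave 0.89 ± 0.17, adjusted p = 0.13 and differed by -1.52 ± 0.23, adjusted p = 0.0019. Nfam1, Kcnk4 and Tuba8, all higher with HDAC4CA in thalamus, gave -0.12 ± 0.15, 0.093 ± 0.19 and 0.25 ± 0.21 in hypothalamus, none called, and differed by 1.57 ± 0.16, adjusted p = 3.2e-05, by 1.43 ± 0.23, adjusted p = 0.0021 and by 1.14 ± 0.28, adjusted p = 0.035. Gal rose in hypothalamus as well, at 26.7 ± 4.04 RPKM with HDAC4CA and 17.0 ± 1.26 RPKM with CREB (0.63 ± 0.094, adjusted p = 0.047), and its difference from thalamus was not called (0.98, adjusted p = 0.060).

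**Figure D5:**
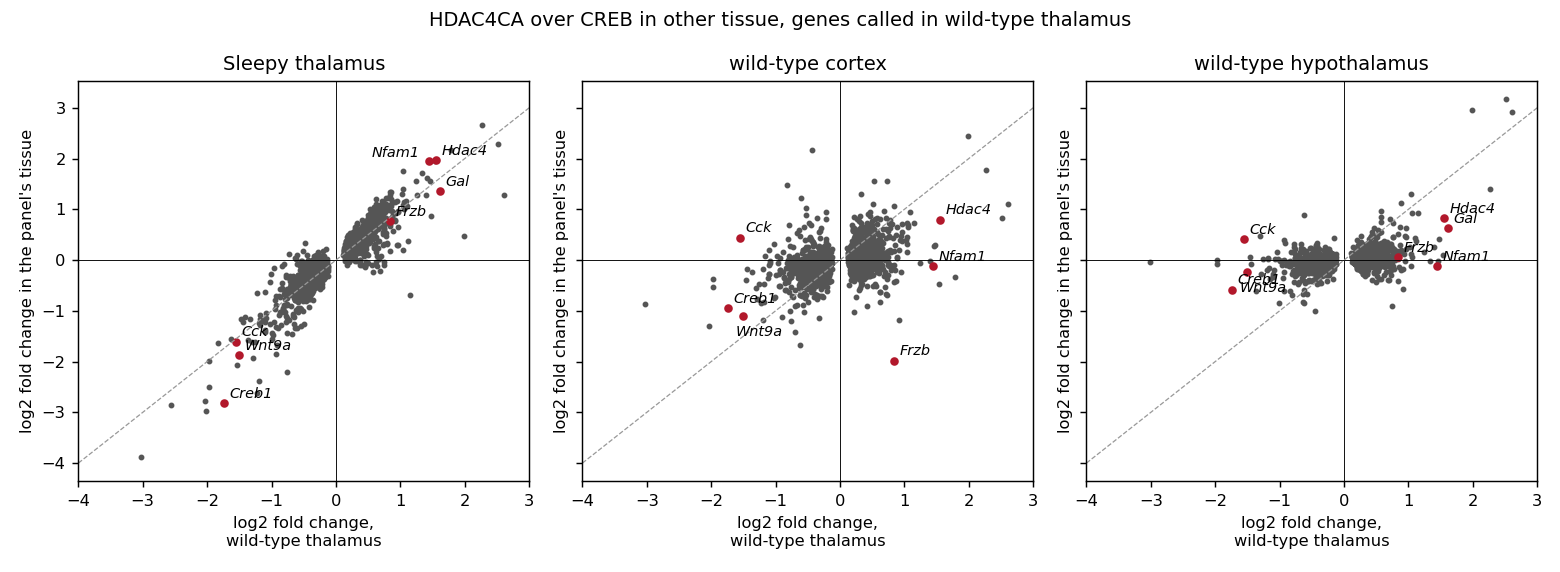
Log2 fold change of HDAC4CA over CREB in Sleepy thalamus, wild-type cortex and wild-type hypothalamus (vertical axes) against that in wild-type thalamus (horizontal axes), for the genes called in wild-type thalamus and tested in the panel's tissue (2107, 2038 and 2048). The dashed line marks equal values, 7 genes are named in red where tested, and the points follow the line in Sleepy thalamus but lie flatter in cortex and hypothalamus, with Cck and Frzb of opposite sign in cortex.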

How the data were processed

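PolyA RNA of C57BL/6J mouse thalamus, cortex and hypothalamus was sequenced, with 4 biological replicates a group. The authors deposited RPKM for the wild-type libraries used here and FPKM for the Sleepy libraries, per the file headers, which relate reads to gene length and to the total of that library. The labels' protocols name the RNAprep Pure Tissue Kit (TIANGEN) and NEBNext Ultra II DNA kit, and the submitters' processing notes name CASAVA 1.9, STAR 2.6.1a, featureCounts, edgeR 3.28.1 and GRCm38. The annotation release, filters and strand setting are not given in the sources used here.

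Whole reads were recovered from the steps of the deposited RPKM and FPKM with exon lengths of GENCODE annotation for GRCm38, and 95.1% to 95.4% of low values in the 8 thalamus libraries lay within 0.1 of a whole read. Of 49466 genes kept, those averaging at least 10 recovered reads entered the test; genes lacking an exon length had to average 1 RPKM. Rows with dates in place of symbols (26) were left out. Where a symbol was repeated, the row with the highest mean over the libraries used was kept, and the surplus rows (93) were dropped. Values were rescaled by the trimmed mean of M values (trims 0.3 and 0.05) and moved to log2(value + 0.1), which understates the change of low genes.

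HDAC4CA was tested against CREB with limma 3.58.1 in R 4.3.3 (trend, robust, two-sided, Benjamini-Hochberg adjustment over all genes tested), from the 8 libraries alone. The difference of the contrast between tissues was an interaction over 16 libraries. The fits were checked on simulated data. P-values measure the spread between these libraries, and labels tie no replicate numbers to a shared mouse or batch. Alternatives changed the pseudocount, filter, scaling, model and libraries.

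Named genes were Hdac4 and Creb1, the 12 largest rises and 12 largest falls among called genes that averaged at least 1 RPKM and whose groups do not overlap, the 6 called members of lowest adjusted p in each list with at least 2, the 3 largest differences in each direction between tissues, and genes with a defining role; some of these genes are not reported here. Further list members that were not called, and the called genes Cacna1d, Hcn4, Axin2 and Tcf7l2, were chosen after their values were seen. The members and lists were chosen with earlier results of these data known.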

Additional observations from a re-analysis of the deposited data

Results flagged for a closer look

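In 23 of 546 groups of 4 libraries (182 named genes in 3 groups), 1 library stood apart from the other 3 by Dixon's 95% criterion, where chance alone gives about 1 in 20. In HDAC4CA replicate 1 this held for Egr4 (0.531 RPKM), Krt20 (0.536 RPKM), Pde4a (6.33 RPKM), Gabra4 (10.5 RPKM) and Scn2b (54.8 RPKM). Each of these values lay below the other 3 HDAC4CA libraries. In HDAC4CA replicate 2 it held for Coch (4.48 RPKM) and Frzb (0.843 RPKM), and in HDAC4CA replicate 3 for Lgi2 (8.85 RPKM) and the cadherin Cdh18 (4.04 RPKM). Each of the genes Krt20, Gabra4, Coch, Frzb and Lgi2 kept its call without the library in question.

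In CREB replicate 3 it held for Car4 (7.05 RPKM), Chga (55.2 RPKM) and Slc1a2 (203 RPKM), in CREB replicate 4 for the histamine receptor Hrh3 (17.6 RPKM) and Lamp5 (1.51 RPKM), and in CREB replicate 2 for C1qb (14.9986 RPKM). Chga in CREB replicate 3 lay inside the HDAC4CA range.

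Among mCherry libraries, replicate 1 stood apart for Scn2b (61.9 RPKM) and Sik2 (2.74 RPKM), replicate 2 for Nfam1 (1.65 RPKM) and Kcnj3 (18.5 RPKM), replicate 3 for Chrna3 (1.59 RPKM), and replicate 4 for Pde4a (6.25 RPKM). These libraries took no part in the test.

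By the interaction in limma, the called differences of the contrast between tissues that the naming rule took in are as follows. Between wild-type and Sleepy thalamus the difference was called for Creb1 (1.09 on the log2 scale). Between thalamus and cortex it was -2.65 for Wnt9b, -1.98 for Cck, -1.81 for Tnnc1, 2.82 for Frzb, 2.12 for Tex40 and 3.51 for Cort. The value of Cort restates its fall in cortex, since its thalamus level was near or below the added 0.1. For Wnt9b the cortex level with CREB was below the added 0.1. Between thalamus and hypothalamus it was -1.97 for Cck, -1.52 for Npy, 1.57 for Nfam1, 1.43 for Kcnk4 and 1.14 for Tuba8.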

How the results depend on the processing

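No called gene changed sign in any of 19 alternatives, and of 171 called genes that are named, 90 kept their call in all of them, 81 lost it in at least 1 and 0 reversed. Against 2124 called genes, 1385 were called without a filter on low values and 1021 with the choroid plexus covariate, an alternative chosen after seeing the data. With 1 library left out the count was 1520 to 2343. The other alternatives, among them another pseudocount, scaling, limma-voom and the mCherry libraries in the fit, gave 1779 to 2533. The difference between wild-type and Sleepy thalamus, 1 gene, was 7 without the filter, 0 with limma-voom, 0 without trend and robust variances, and 0 to 2 with 1 library left out. The difference between thalamus and cortex, 769 genes, was 504 without the filter, 292 without rescaling and 489 to 1238 with 1 library left out. The difference between thalamus and hypothalamus, 486 genes, was 387 to 651 with 1 library left out. The causes were not tested.

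With the replicate number as a block, 1392 genes were called in wild-type thalamus, and the differences numbered 0 for Sleepy thalamus, 492 for cortex and 299 for hypothalamus. Same-numbered HDAC4CA and CREB libraries correlated at -0.12, -0.41, -0.13 and -0.0037 in their deviations from the group means, and no library correlated best with its own number, so the numbers were not taken as pairing. Depth, 18.4 to 28.2 M reads, limits the precision of genes with few reads.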
